A study of Homo sapiens with 12 samples.

Results

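The chaperones of the HSP70, HSP90 and HSP40 families, with the mitochondrial chaperonin and the small heat shock proteins, were followed in H1299 and A549 cells that carried a VGF lentivirus or an empty vector. The members are the 47 rows of the count table, of 26535 features, whose symbol begins with HSPA, HSPB, HSPD, HSPE, HSPH, DNAJA or DNAJB and a number, or with HSP90A or HSP90B. H1299 (labelled NCI-H1299) and A549 are established human non-small-cell lung cancer lines, and VGF encodes a precursor of secreted neuroendocrine peptides. HSPA8 has been proposed as a partner of one such peptide, a binding that messenger RNA levels do not measure. The 4 groups were H1299 with VGF, H1299 with empty vector, A549 with VGF and A549 with empty vector, with 3 libraries each that the design text calls biologically independent. All groups are labelled wild type in genotype, and all received lentivirus. H1299 was grown in RPMI-1640 and A549 in DMEM/F12, so the line and its medium cannot be told apart. The labels do not say whether the carriers were pools or clones.

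HSP70 proteins bind short hydrophobic stretches of unfolded chains and release them in a cycle driven by ATP. J-domain proteins of the HSP40 family (DNAJA and DNAJB) bring clients to HSP70 and start ATP hydrolysis, and HSP110 proteins (HSPH1, HSPA4 and HSPA4L) let the next ATP in. HSP90 takes partly folded kinases and receptors from HSP70, while the small heat shock proteins hold unfolding proteins without ATP. Each compartment has its own set: HSPA5, HSP90B1, DNAJB9 and DNAJB11 in the endoplasmic reticulum (ER), and HSPA9, HSPD1, HSPE1 and DNAJA3 in mitochondria. The factor HSF1 raises the cytosolic set under heat and proteotoxic stress, and the unfolded protein response raises the ER set. Cancer cells often hold high levels of cytosolic chaperones.

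The DNA elements through which these controls act were found in genes of several families, and the stretches of 30 bases around some of them are shown. In the 250 bases before the RefSeq start sites (GRCh38.p14), 41 of 46 member symbols had a window. Heat shock elements of 3 units, in which GAA and TTC alternate with NN between them (searched on both strands), were found in 6 of the 41, or 14.6%, against 0.557% of 27305 genes. The capitals mark these units in HSPA8, HSP90AA1, HSP90AB1, DNAJB6, HSPD1 and HSPA6, a unit pair (GAANNTTC) in HSPA1A, and the ER stress element (CCAAT, 9 bases N and CCACG, either strand) in HSPA5 and HSP90B1.
HSPA8, 230 to 218 bases before the start (chr11:123062346-123062375, minus strand): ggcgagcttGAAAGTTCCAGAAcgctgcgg
HSPA8, 55 to 43 bases before the start (chr11:123062171-123062200, minus strand): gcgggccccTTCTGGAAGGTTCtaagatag
HSP90AA1, 88 to 76 bases before the start (chr14:102087112-102087141, minus strand): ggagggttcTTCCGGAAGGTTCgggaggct
HSP90AB1, 165 to 153 bases before the start (chr6:44247769-44247798, plus strand): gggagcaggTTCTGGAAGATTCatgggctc
HSP90AB1, 112 to 100 bases before the start (chr6:44247822-44247851, plus strand): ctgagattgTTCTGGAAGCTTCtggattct
DNAJB6, 131 to 119 bases before the start (chr7:157336864-157336893, plus strand): aagagccgaGAACCTTCGCGAAggtggggc
HSPD1, 245 to 228 bases before the start (chr2:197500061-197500090, minus strand): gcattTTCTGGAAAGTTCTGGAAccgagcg
HSPA6, 74 to 62 bases before the start (chr1:161524457-161524486, plus strand): gcggaaaggTTCGCGAAAGTTCgcggcggc
HSPA1A, 106 to 99 bases before the start (chr6:31815426-31815455, plus strand): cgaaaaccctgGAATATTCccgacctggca
HSPA5, 66 to 48 bases before the start (chr9:125241386-125241415, minus strand): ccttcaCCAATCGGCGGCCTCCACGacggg
HSP90B1, 194 to 176 bases before the start (chr12:103930210-103930239, plus strand): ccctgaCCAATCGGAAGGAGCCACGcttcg
HSP90B1, 89 to 71 bases before the start (chr12:103930315-103930344, plus strand): tgggtgCGTGGTGCGGCGCGATTGGtgggt

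In HSPD1 a further unit adjoins the others, which makes the marked run longer. The 12 stretches lie before the RefSeq starts, but GENCODE 29 places all 30 bases of the HSPA8, HSP90AA1, HSPD1 and HSP90B1 stretches inside annotated exons. The unit pair alone (GAANNTTC or TTCNNGAA, also contained in each run of 3) was found in 19 of 41 members, or 46.3%, against 14% of all genes. The ER stress element was found in 2 members, or 4.88%, against 0.0916% of all genes. CCAAT boxes were about as common in members (41.5%) as in all genes (37%), and TATAAA stood before 22% of members and 13% of all genes. A match of letters is a description of the window and does not show that a factor binds there.

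Library totals ran from 31378171 to 41919484 counts. VGF itself had 886, 941 and 1110 CPM (counts scaled by library total and TMM factor) in H1299 with VGF, against 77.2, 90.5 and 89.0 in H1299 with empty vector. In A549 it had 1360, 1200 and 1290 CPM with VGF, against 2.74, 2.54 and 2.01 with empty vector. Every library labelled VGF was above every empty vector library of its line. CDH1, which encodes E-cadherin, was at 0 in the H1299 libraries and had 2653 to 3190 counts in A549, and both lines held epithelial keratins (KRT8 18157 to 22028 counts in H1299 and 120606 to 147299 in A549). Replicate 2 of A549 with VGF stood apart from its group: the 12 endothelial markers summed to 461 CPM there, while replicates 1 and 3 held 86.4 and 93.2 CPM and the empty vector libraries 76.1 to 88.4. A549 values without this library are given beside the results below.

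Of the 47 members, 39 had enough counts to be tested and 8 did not. In the deposited FPKM, which are scaled by gene length, 3 cytosolic genes led the families in every group. HSP90AA1, the stress-inducible HSP90, averaged 1140 ± 77.4 FPKM in H1299 with VGF, 949 ± 55.0 in H1299 with empty vector, 480 ± 27.3 in A549 with VGF and 518 ± 16.9 in A549 with empty vector (SD, n = 3 each). HSPA8, the constitutive cytosolic HSP70 that also strips clathrin from vesicles, averaged 1050 ± 20.7, 823 ± 54.0, 613 ± 44.0 and 625 ± 6.21 FPKM in the same 4 groups. HSP90AB1, the constitutive HSP90, averaged 804 ± 5.98, 787 ± 23.1, 588 ± 12.1 and 592 ± 22.2 FPKM.

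The order of these leaders differed by line in level. HSP90AA1 had the highest value in 5 of the 6 H1299 libraries, and in replicate 3 with VGF HSPA8 stood above it (1070 and 1050 FPKM). In each A549 library HSP90AA1 was below both HSPA8 and HSP90AB1. With VGF, HSPA8 ranged over 564 to 650 FPKM in A549 and HSP90AB1 over 575 to 600, so the order of these neighbours was not separated by their spread. HSPA8 ranked 48, 64, 76 and 72 among all features by mean FPKM in the 4 groups.

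The organelle chaperones were also abundant. HSP90B1 (GRP94, the HSP90 of the ER) averaged 442, 416, 387 and 410 FPKM in H1299 with VGF, H1299 with empty vector, A549 with VGF and A549 with empty vector. HSPD1, the HSP60 ring subunit of mitochondria, averaged 325, 302, 326 and 321 FPKM. HSPA5 (BiP, the ER HSP70) averaged 308, 295, 338 and 362 FPKM. HSPB1, a cytosolic small heat shock protein, averaged 147, 161, 354 and 318 FPKM, so in A549 it stood among these organelle genes. HSPD1 and HSPA5 were neighbours whose libraries overlapped in H1299 with VGF (305 to 349 and 304 to 313 FPKM). The HSP90 genes together took 0.761 ± 0.0305% of all counts in H1299 with VGF, 0.681 ± 0.0256% in H1299 with empty vector, 0.450 ± 0.0174% in A549 with VGF and 0.471 ± 0.0103% in A549 with empty vector. The 47 members together took 1.54 ± 0.0449%, 1.40 ± 0.0434%, 1.19 ± 0.0323% and 1.25 ± 0.0253% of the counts. These shares are of raw library totals, without the TMM factors that enter CPM. The factors were 1.06 to 1.09 in H1299 and 0.919 to 0.94 in A549. Dividing by them lowers H1299 relative to A549, so the shares do not show how the lines compare on the CPM scale. In bulk libraries, more RNA of a gene per cell and more cells that express it cannot be told apart.

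**Figure D1:**
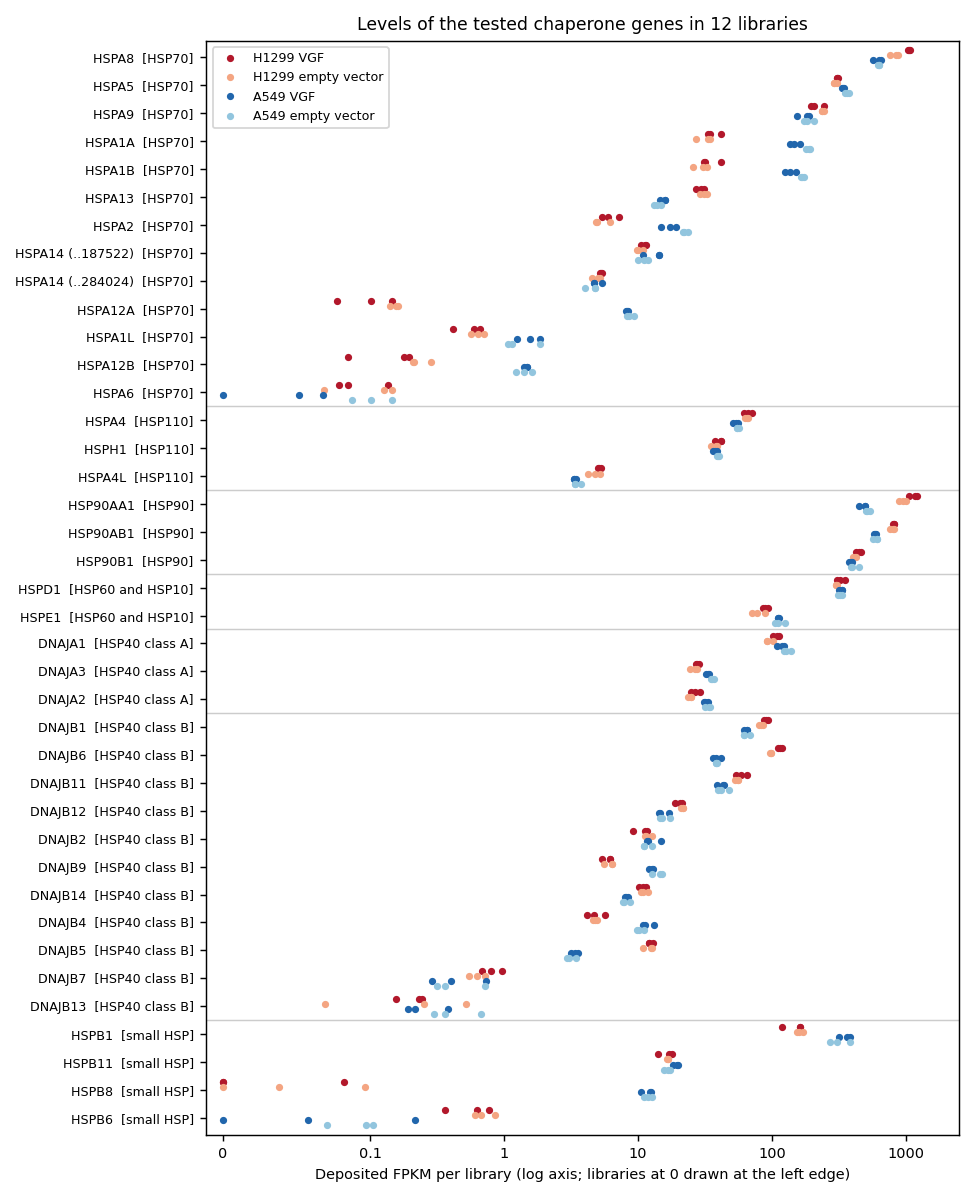
Deposited FPKM (log axis, libraries at 0 at the left edge) of the 39 tested chaperone genes by class, 1 point per library, 3 per group. HSP90AA1, HSPA8 and HSP90AB1 lie farthest right in all groups, and the lines lie far apart for HSPA1A, HSPA1B, HSPA12A and HSPB8 while the vectors of a line lie close together.

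At the low end, HSPA6, a strictly stress-inducible HSP70, held 6, 13 and 7 counts in H1299 with VGF and 5, 14 and 15 with empty vector. In A549 it held 0, 5 and 3 counts with VGF and 10, 7 and 13 with empty vector. HSPA1L, DNAJB7 and DNAJB13, known from testis, averaged under 5 CPM in every group. The 8 untested members were HSPB2, HSPB3, HSPB7, HSPB9, DNAJB8, DNAJA4 and the readthrough transcripts HSPB2-C11orf52 and HSPE1-MOB4. HSPB2, HSPB3, HSPB7, HSPB9, DNAJB8 and HSPB2-C11orf52 held at most 15 counts in any library. DNAJA4, a class A J-domain protein, held 0, 82 and 0 counts in A549 with VGF and 6, 10 and 5 with empty vector, against 0 to 9 in H1299. HSPE1-MOB4 held 0, 16 and 0 counts in H1299 with VGF, 0, 113 and 0 in A549 with VGF and 0 in each empty vector library, and its exons are shared in full with HSPE1 and MOB4. The 82 and 113 counts both belong to replicate 2 of A549 with VGF, the library with the endothelial transcripts, whose part in them was not tested.

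The first comparison asked what VGF did to the chaperones in H1299. No member passed the test at an adjusted p under 0.05, where 2 of 18228 features did (0.0110%). HSPA8 had 2350, 2390 and 2300 CPM with VGF, against 2000, 1960 and 1740 with empty vector. Each VGF library was above each control library; the log2 fold change was 0.30 with a standard error of 0.0532 (adjusted p = 0.119). HSP90AA1 had 3830, 4000 and 3570 CPM with VGF, against 3320, 3210 and 2950 with empty vector. Its groups did not overlap either, with a log2 change of 0.27 (SE 0.0569, adjusted p = 0.164). DNAJB6, a J-domain protein that keeps polyglutamine chains from aggregating, had 236, 238 and 233 CPM with VGF, against 210, 215 and 199 with empty vector (log2 fold change 0.18, SE 0.0533, adjusted p = 0.418).

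These 3 genes were the members that DESeq2 called in H1299, all higher with VGF, with an adjusted p of 1.1e-05 for HSPA8, 0.0014 for HSP90AA1 and 0.0469 for DNAJB6. DESeq2 called 139 features in this comparison, against 2 with edgeR. limma voom called none of the members, with an adjusted p of 0.0878 for HSPA8. HSPA8 kept an adjusted p of 0.0799 to 0.336 in edgeR with each of the 12 libraries left out in turn, and its log2 fold change stayed at 0.25 to 0.34. The call for these genes therefore depended on the test.

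Other members with groups apart in H1299 included DNAJA1, the most abundant class A J-domain protein, with 263, 253 and 245 CPM with VGF, against 236, 218 and 215 with empty vector (log2 fold change 0.19, SE 0.0589, adjusted p = 0.455). HSPE1, the HSP10 lid of the mitochondrial chaperonin, averaged 81.2 ± 2.93 CPM with VGF and 70.2 ± 7.89 with empty vector (log2 fold change 0.21). Its ring partner HSPD1 had 820, 770 and 744 CPM with VGF, against 715, 737 and 715 (log2 fold change 0.11). The 3 class A J-domain proteins, 3 HSP90 genes, 3 HSP110 genes and both chaperonin genes that were tested all had positive fold changes in H1299. Of the class B J-domain proteins 6 of 11 did, of HSP70 genes 7 of 13, and of the small heat shock proteins 0 of 4, against 45.4% of all features. In A549 49.3% of all features were positive. There the counts were 0 of 3 class A, 0 of 3 HSP90, 1 of 3 HSP110 and 2 of 2 chaperonin genes. For class B it was 7 of 11, for HSP70 5 of 13 and for small heat shock proteins 4 of 4. Without replicate 2 of A549 with VGF, HSPB6 (-1.53), HSPB8 (-0.03), HSPE1 (-0.01) and HSPA4L (-0.00849) turned negative. So did DNAJB6 (-0.05) and DNAJB7 (-0.395), while DNAJB12 turned positive (0.04). These A549 counts therefore depend on that library. HSPB8 rests on few counts in H1299 and HSPB6 on few in both lines. In A549 HSPB6 held 0, 15 and 3 counts with VGF, against 5, 3 and 6 with empty vector. HSPB11 is among the 4 by its name only, as a ciliary transport subunit. In H1299 HSPB1 (HSP27, the most abundant small heat shock protein) had 118, 158 and 163 CPM with VGF, against 153, 171 and 157 with empty vector, and the groups overlapped.

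An unadjusted p under 0.05 was reached in H1299 by 9 of 39 members, against 7.80% of all features. Of these, 7 were higher with VGF (3.13% of all features) and 2 lower (4.67%). Groups stood apart with VGF higher for 9 members, against 5.65% of all features, and with VGF lower for 2, against 7.05%. Among features of at least 50 CPM these counts were 8 of 22 members higher, against 8.79%, and 0 lower, against 7.08%. The median log2 fold change was 0.0497 over the tested members and -0.00555 over all features. These shares use the same libraries as the fold changes above, and the list was not tested as a set. The deposited FPKM gave HSPA8 a log2 fold change of 0.35 on the log2(FPKM + 1) scale.

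**Figure D2:**
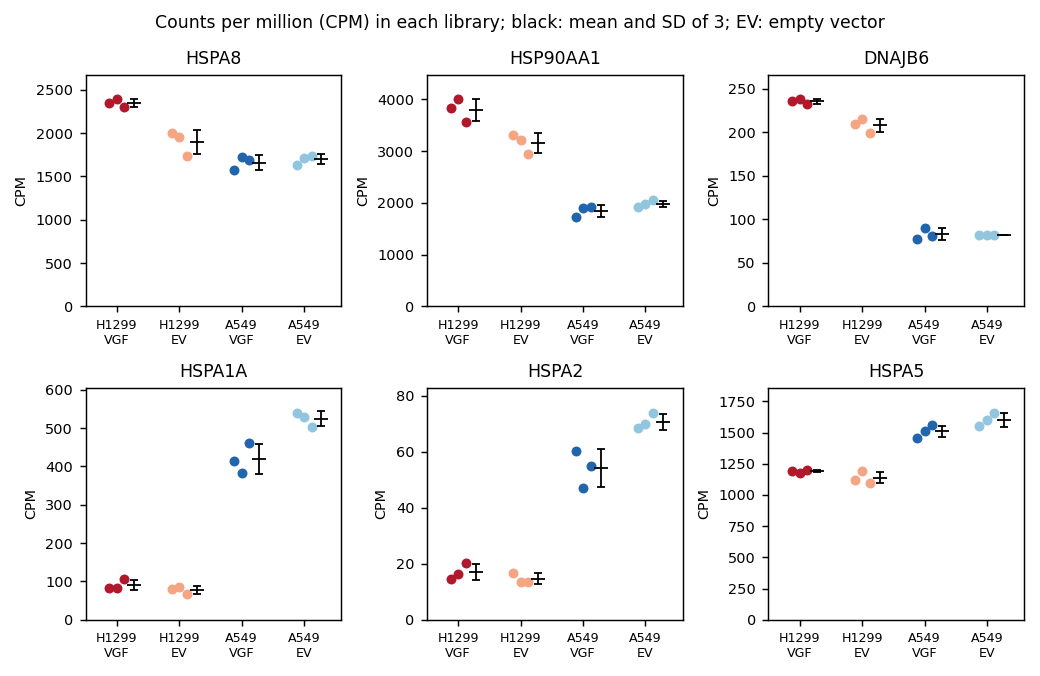
CPM in each library (points), with mean and SD of 3 libraries in black, for HSPA8, HSP90AA1, DNAJB6, HSPA1A, HSPA2 and HSPA5. HSPA8, HSP90AA1 and DNAJB6 lie higher in each H1299 library with VGF than in each with empty vector, while HSPA1A and HSPA2 lie lower in each A549 library with VGF.

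In A549 no member passed the test either, where 144 features did (0.790%), 74 higher and 70 lower. Without replicate 2 of the VGF group 96 features passed and again no member. HSPA8 had 1570, 1730 and 1690 CPM with VGF, against 1630, 1710 and 1740 with empty vector. The groups overlapped (log2 fold change -0.03, SE 0.0532, adjusted p = 0.922; -0.06 without replicate 2). HSP90AA1 had 1720, 1910 and 1930 CPM with VGF, against 1930, 1970 and 2050 (log2 fold change -0.10, SE 0.0569, adjusted p = 0.486; -0.12 without replicate 2). DNAJB6 had 77.4, 90.4 and 81.4 CPM with VGF, against 82.5, 81.7 and 82.0 with empty vector. Its high value is replicate 2, and the log2 fold change of 0.02 turned to -0.05 without that library.

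HSPA2, an HSP70 best known from spermatocytes, had 60.3, 47.0 and 54.8 CPM with VGF, against 68.3, 70.0 and 73.9 with empty vector (log2 fold change -0.39, SE 0.119, adjusted p = 0.161). Its lowest value is that of replicate 2, without which the log2 fold change was -0.30 (adjusted p = 0.388), and the groups stayed apart. Among the members with an unadjusted p under 0.05, HSPA2 and the inducible pair HSPA1A and HSPA1B are described here, and DNAJA1, DNAJA3, HSPA5, HSPA6 and HSPA9 had negative fold changes too. DESeq2 and limma voom called HSPA2 lower, with an adjusted p of 0.0470 and 0.0400. They called 729 and 334 features in A549, against 144 with edgeR. HSPA1A had 415, 383 and 461 CPM with VGF, against 540, 529 and 502 with empty vector (log2 fold change -0.32, SE 0.106, adjusted p = 0.196). Without replicate 2 this was -0.26 (adjusted p = 0.428).

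HSPA1A and HSPA1B are neighbouring genes on chromosome 6 whose coding sequences share 1922 of 1926 bases (99.8%), so reads cannot be divided between them with certainty. Each is still counted as a separate member in all counts given here, so the same signal may enter a count more than once. Their sum was 800, 743 and 902 CPM in A549 with VGF, against 1040, 1010 and 972 with empty vector. In H1299 the sum was 160, 160 and 210 CPM with VGF, against 157, 168 and 129 with empty vector, and there the groups overlapped. HSPA1B alone gave log2 fold changes of 0.24 in H1299 and -0.29 in A549 (adjusted p = 0.688 and 0.302), and -0.23 in A549 without replicate 2 (adjusted p = 0.571).

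HSPA5 averaged 1510 ± 47.1 CPM in A549 with VGF and 1600 ± 55.8 with empty vector, with a log2 fold change of -0.09 both with replicate 2 (adjusted p = 0.348) and without it (adjusted p = 0.534). In H1299 it averaged 1190 ± 8.19 CPM with VGF and 1140 ± 44.0 with empty vector (log2 fold change 0.07, adjusted p = 0.756). HSPB1 overlapped between the A549 groups, with 389, 415 and 359 CPM with VGF, against 413, 339 and 298 (log2 fold change 0.15, or 0.09 without replicate 2). An unadjusted p under 0.05 was reached in A549 by 11 of 39 members, against 13.9% of all features, 3 of them higher (8.10%) and 8 lower (5.77%). Groups stood apart with VGF lower for 8 members, against 9.08% of all features, and with VGF higher for 1 member (HSPB11, a ciliary transport subunit despite its name), against 9.27%. Among features of at least 50 CPM, 6 of 22 members stood apart and lower, against 9.45%, and 0 higher, against 15.2%. Without replicate 2 an unadjusted p under 0.05 was reached by 0 members higher (5.34% of all features) and 4 lower (5.16%). Groups of 2 and 3 libraries then stood apart with VGF lower for 12 members (13.5%) and higher for 1 (13.9%). Among features of at least 50 CPM, 9 of 22 members then stood apart and lower (13.6%) and 0 higher (20.2%). The members' median log2 fold change was -0.000616 with all libraries, and that of all features was 0. Without replicate 2 these medians were -0.0476 and 0.

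**Figure D3:**
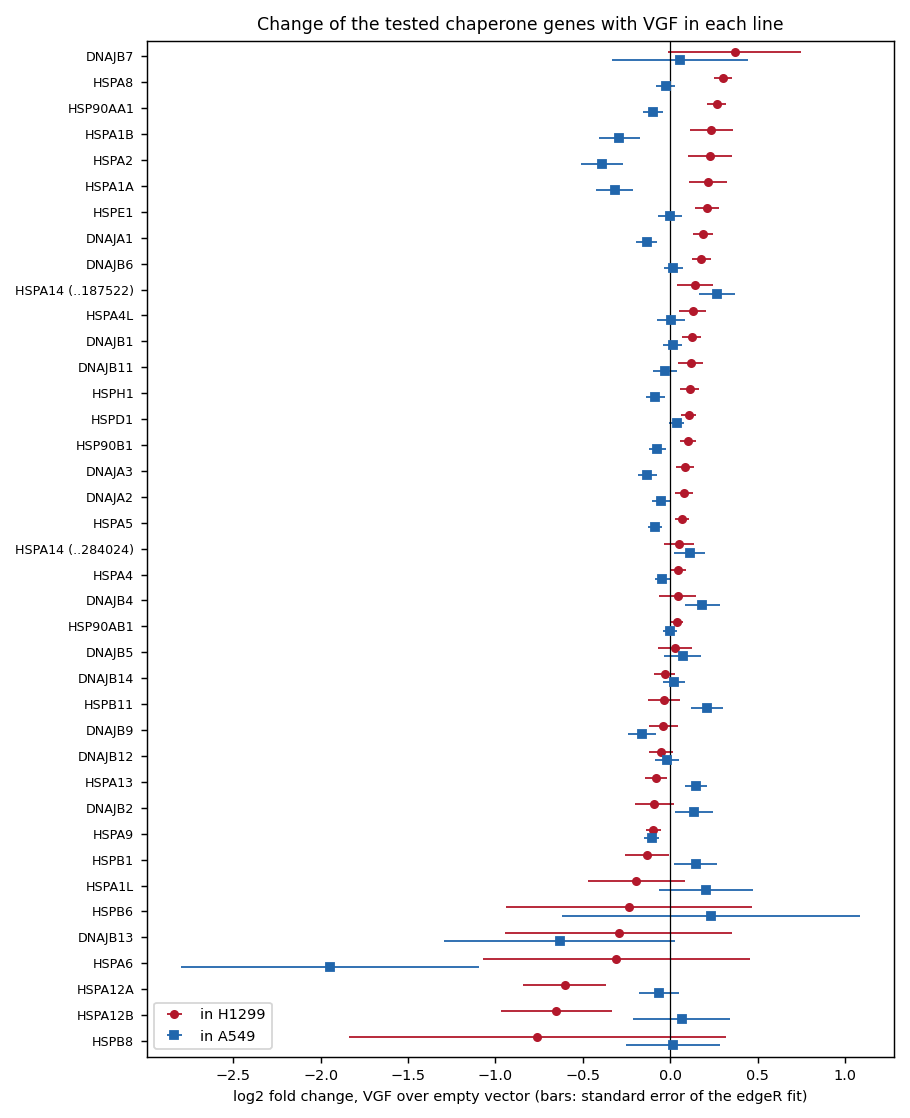
log2 fold change with VGF over empty vector for the 39 tested chaperone genes, ordered by the value in H1299 (circles, H1299; squares, A549; bars, standard error of the fit). HSPA8 and HSP90AA1 lie at 0.30 and 0.27 in H1299 and at -0.03 and -0.10 in A549, and no point passed the adjusted threshold.

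The difference between the VGF effects (H1299 minus A549) was tested in the same fit. It passed for 29 features (0.159%) and no member. The difference was 0.36 for HSP90AA1 (SE 0.0805, adjusted p = 0.120), 0.33 for HSPA8 (SE 0.0753, adjusted p = 0.135) and 0.32 for DNAJA1 (SE 0.0832, adjusted p = 0.200). It was 0.62 for HSPA2 (SE 0.174, adjusted p = 0.244) and 0.53 for HSPA1A (SE 0.153, adjusted p = 0.247). DESeq2 called 4 members here, HSP90AA1, HSPA8, DNAJA1 and HSPA2, with adjusted p-values of 0.00151, 0.0017, 0.0137 and 0.0374. It called 310 features in this comparison, against the 29 of edgeR. Without replicate 2 of A549 with VGF, the edgeR values were 0.39 for HSP90AA1 and 0.37 for HSPA8 (adjusted p = 0.125 and 0.101), 0.36 for DNAJA1, 0.53 for HSPA2 and 0.48 for HSPA1A. An unadjusted p under 0.05 was reached by 11 members, against 11.2% of all features. The difference was positive for 10 of them (4.33% of all features) and negative for 1, HSPA13 (6.82%). Each of the 10 had a positive fitted value in H1299 and a negative one in A549. The 10 include both HSPA1A and HSPA1B, whose reads cannot be divided with certainty. Picking members by a positive difference favours such signs, and the share among features picked alike was not taken. The HSPA8 value in A549 turned to 0.02 without VGF replicate 1. Without replicate 2 of A549 with VGF, the members with an unadjusted p under 0.05 were 11 positive (4.55% of all features) and 0 negative (5.16%).

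The lines themselves differed far more than the vectors. With empty vector, 31 of 39 members passed the test between H1299 and A549, where 77.2% of all features passed, so the share of members is close to that of features at large. In H1299 12 were higher (38.5% of all features) and 19 lower (38.6%). With VGF in both lines 33 members passed (77.3% of all features), 14 higher (38.2%) and 19 lower (39.1%). Without replicate 2 of A549 with VGF 13 were higher (38.3% of all features) and 19 lower (37.4%). Upper-quartile scaling gave the median of all features as 0.112 in this comparison, where TMM gave 0.00608. HSP90B1 and the HSPA14 entry ENSG00000187522, both lower in H1299 with TMM, then lost their calls, DNAJB11 and HSPA4 gained one, and the split became 14 higher and 17 lower. The split of all features moved too, from 7024 higher and 7043 lower with TMM to 7613 higher and 6508 lower. On log2(FPKM + 1), where that median was 0.12, 14 members were higher and 15 lower, beside 8091 features higher and 5962 lower. There HSP90B1 turned to 0.02, HSPD1 (-0.08), HSPH1 (-0.08) and the same HSPA14 entry (-0.10) lost their calls, and DNAJB11 and HSPA4 again gained one. The members' median log2 fold change with TMM was -0.20.

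Among HSP70 genes 8 of 13 were lower in H1299 (38.6% of all features) and 3 higher (38.5%). The 8 include HSPA1A, HSPA1B and the HSPA14 entry whose call was lost under other scalings. HSPA1A fell to 80.9, 85.6 and 65.8 CPM in H1299, against 540, 529 and 502 in A549 (log2 fold change -2.76, SE 0.114, adjusted p = 1.36e-10). HSPA1B moved with it at -2.71 (SE 0.127, adjusted p = 4.43e-10), with the limit on shared reads given above. HSPA2 had 16.7, 13.4 and 13.5 CPM in H1299, against 68.3, 70.0 and 73.9 in A549 (log2 fold change -2.28, SE 0.127). HSPA12A and HSPA12B, divergent HSP70 relatives, had 36 to 42 and 30 to 37 counts in H1299, against 1753 to 2072 and 150 to 191 in A549, log2 fold changes of -5.93 and -2.75 (adjusted p = 2.44e-12 and 2.54e-06).

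HSPA13, a microsomal HSP70 that lacks the peptide-binding domain, went the other way. It had 115, 123 and 129 CPM in H1299 with empty vector, against 59.5, 63.3 and 67.0 in A549 (log2 fold change 0.95, SE 0.0642, adjusted p = 1.81e-08). HSPA8 was higher in H1299 by 0.17 (SE 0.0532, adjusted p = 0.0124), and the libraries did not overlap, though the nearest both round to 1740 CPM. That call was lost without H1299 empty vector replicate 1 (0.13, adjusted p = 0.0605) or A549 empty vector replicate 1 (0.14, adjusted p = 0.0541). Between the VGF libraries of the lines the HSPA8 difference was 0.49 (SE 0.0533, adjusted p = 1.91e-06). HSPA5 was lower in H1299 by a log2 change of -0.49 (SE 0.0390, adjusted p = 8.38e-08).

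Of the HSP90 genes, HSP90AA1 had 3320, 3210 and 2950 CPM in H1299, against 1930, 1970 and 2050 in A549 (log2 fold change 0.67, SE 0.0571, adjusted p = 1.74e-07). HSP90AB1 was higher by 0.21 (SE 0.0383, adjusted p = 2.68e-04). All 3 class A J-domain proteins and both chaperonin genes were lower in H1299, where 38.6% of all features were. DNAJA1 had 236, 218 and 215 CPM there, against 347, 330 and 371 in A549 (log2 fold change -0.65, SE 0.0591). HSPD1 had 715, 737 and 715 CPM, against 847, 883 and 915 (log2 fold change -0.29, SE 0.0437).

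Class B J-domain proteins split. DNAJB6 had 210, 215 and 199 CPM in H1299, against 82.5, 81.7 and 82.0 in A549 (log2 fold change 1.34, SE 0.0549, adjusted p = 1.16e-10). DNAJB5 had 29.4, 29.8 and 25.7 CPM, against 8.61, 9.64 and 7.76 (log2 fold change 1.71, SE 0.102). DNAJB1, the classical HSP40 and the partner of HSP70 in refolding, had 182, 190 and 172 CPM, against 159, 175 and 157, so its groups overlapped (log2 fold change 0.15, adjusted p = 0.0244), and its call held in 8 of the 12 fits with 1 library left out. The ER J-domain protein DNAJB9 was lower in H1299 at 16.4 ± 1.10 CPM, against 43.4 ± 3.86 in A549. DNAJB14, an ER membrane protein, and HSPA4L, an HSP110 protein, were higher by 0.21 and 0.28 (adjusted p = 0.00839 and 0.00626).

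The small heat shock proteins held the widest gap. HSPB8, which works with BAG3 in selective autophagy of misfolded proteins, had 2, 0 and 9 counts in H1299 with empty vector, against 1061, 901 and 960 in A549. The VGF libraries showed the same split, with 0, 0 and 6 counts in H1299 and 759, 1208 and 1065 in A549. The fitted log2 fold change with empty vector was -8.36 (SE 0.466, adjusted p = 2.51e-09), and it ran from -10.1 to -7.77 with 1 library left out. HSPB1 averaged 160 ± 9.70 CPM in H1299 and 350 ± 58.2 in A549 (log2 fold change -1.13, adjusted p = 2.81e-06). HSPB6 passed in the other direction on few counts, 31 to 49 in H1299 and 3 to 6 in A549.

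**Figure D4:**
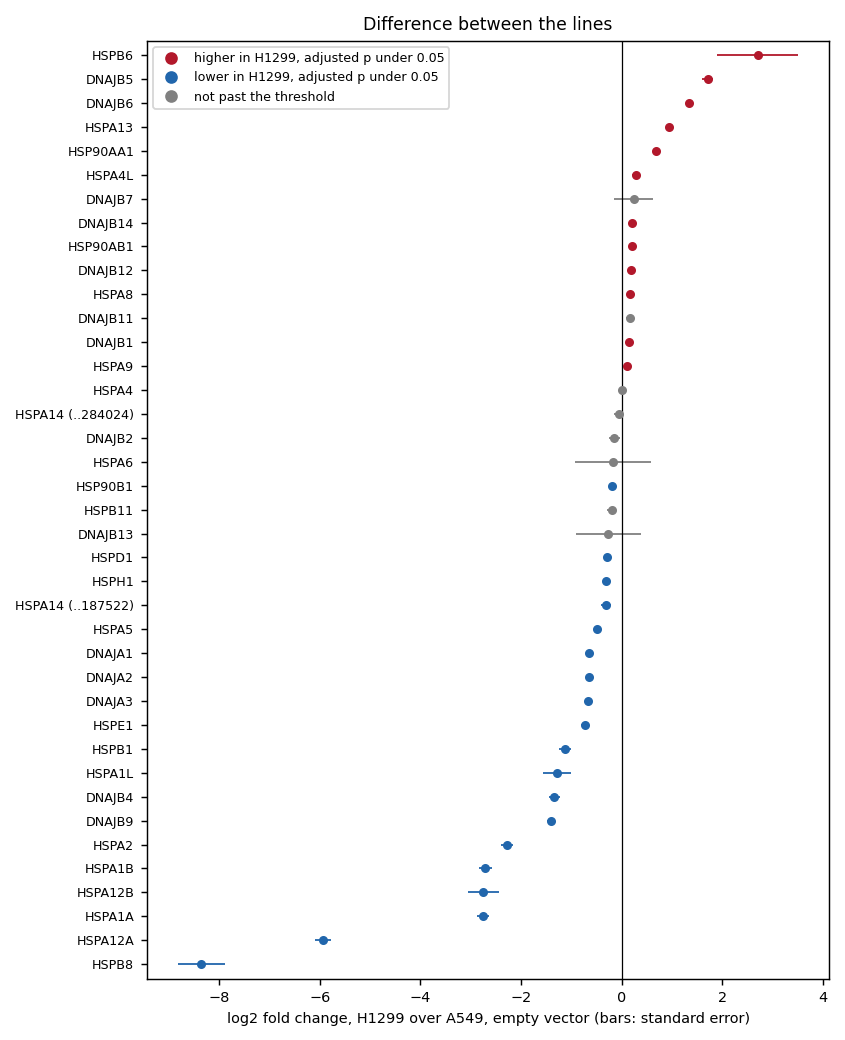
log2 fold change of H1299 over A549 with empty vector for the 39 tested chaperone genes, with standard errors (red, higher in H1299; blue, lower; grey, not past the adjusted threshold). HSPB8 at -8.36 and HSPA12A at -5.93 lie farthest to the left, and DNAJB5 and DNAJB6 are the highest members above 5 CPM.

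Coding sequences of other relatives are less alike than those of HSPA1A and HSPA1B. HSPA8 shares 73.7% of aligned coding bases with HSPA1A, 73.4% with HSPA2, 62.4% with HSPA5 and 55.3% with HSPA9, and HSP90AA1 shares 64.7% with HSP90AB1. HSPA8 (ENSG00000109971) lies on chromosome 11, 123057489 to 123063230, minus strand, and HSP90AA1 (ENSG00000080824) on chromosome 14, 102080738 to 102139699, minus strand. HSPA1A (ENSG00000204389) lies on chromosome 6, 31815464 to 31817946, plus strand, and HSPA2 (ENSG00000126803) on chromosome 14, 64535905 to 64546173, plus strand. Exons of HSPE1 and HSPD1 overlap on opposite strands (14.2% and 6.62% of their exonic bases), and HSP90AA1 shares 3.75% with an opposite-strand gene. Whether strand was used in counting is not given in the sources used here, so reads in these overlaps cannot be assigned. The 2 HSPA14 entries overlap on the same strand and are uncertain for the same reason.

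The same comparisons were read for 7 lists of related folding genes. The lists overlap: BAG3, CHORDC1, STIP1, AHSA1 and FKBP4 stand in those of both co-chaperones and heat shock genes. With VGF in H1299 none of the 5 tested HSF genes, 37 co-chaperones, 30 DNAJC proteins, 14 chaperonin and prefoldin subunits, 31 ER genes, 13 mitochondrial genes and 19 heat shock genes passed the test. HSF1, the heat shock factor, had a log2 fold change of 0.06 in H1299 and -0.03 in A549 (0.02 without VGF replicate 2), and BAG3, an HSP70 exchange factor under HSF1 control, had 0.00227 in H1299 and -0.05 in A549. All 14 chaperonin and prefoldin subunits had positive values in H1299 (median 0.105) and 10 of 14 in A549 (median 0.0297). Of all features 45.4% and 49.3% had positive values, with medians of -0.00555 and 0. The other lists in H1299 had positive values for 5 of 5 HSF genes, 26 of 37 co-chaperones and 17 of 30 DNAJC proteins. For ER genes this was 15 of 31, for mitochondrial genes 12 of 13 and for listed heat shock genes 13 of 19. With VGF in A549 1 gene passed: DNAJC9, a histone chaperone with a J domain, had 69.2, 75.2 and 69.8 CPM, against 58.4, 58.1 and 60.2 with empty vector (log2 fold change 0.28, SE 0.0448, adjusted p = 0.0166). That call was lost without VGF replicate 2 (0.24, adjusted p = 0.0538), empty vector replicate 1 (adjusted p = 0.0728) or empty vector replicate 2 (adjusted p = 0.0691).

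Between the lines with empty vector the lists are given as counts, to be read beside the 38.5% of all features that were higher in H1299 and the 38.6% that were lower, and they were not tested as sets. Of 31 ER folding and unfolded protein response genes 23 were lower in H1299 and 6 higher, with a median log2 fold change of -0.70. The stress sensor EIF2AK3 (PERK) averaged 10.0 CPM in H1299 and 44.2 in A549, and EDEM1, which delivers misfolded glycoproteins for degradation, averaged 24.9 and 106. DDIT3 (CHOP), a transcription factor of the stress response, was higher, at 44.8 CPM in H1299 and 7.32 in A549. Of 19 genes listed as heat shock response genes outside the families 13 were lower and 5 higher. CRYAB, a small heat shock protein outside the naming rule, averaged 0.0752 CPM in H1299 and 12.8 in A549, and CHAC1, a glutathione-degrading enzyme, averaged 85.4 and 3.58.

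Of 14 chaperonin and prefoldin subunits 10 were higher in H1299 and 2 lower. TCP1, a subunit of the cytosolic chaperonin, averaged 542 CPM in H1299 and 248 in A549, while its partner CCT7 averaged 385 and 688. Among 37 co-chaperones 17 were higher and 13 lower, and HSPBP1, a nucleotide exchange factor of HSP70, averaged 23.6 CPM in H1299 and 60.2 in A549. Of 30 DNAJC proteins 18 were higher and 7 lower, of 13 mitochondrial genes 6 and 2, and of 5 HSF genes 2 and 3. HSF1 averaged 105 CPM in H1299 and 74.5 in A549 (log2 fold change 0.49), HSF2 30.9 and 15.8, and HSBP1, a binding protein of HSF1, 50.6 and 97.9.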

How the data were processed

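Messenger RNA of 12 libraries was measured by RNA sequencing. The authors deposited raw counts per feature and FPKM values, scaled by gene length and library size; both were taken as deposited. DESeq2 (no version) and the build GRCh38 appear in the submitters' processing notes; the sources used here name no aligner, counter, annotation or strand setting. Another 18 stray lines held no feature and were left out.

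Counts of all 12 libraries entered 1 edgeR 4.0.16 model (R 4.3.3, glmQLFit and glmQLFTest) with 4 group means, with TMM scaling and filterByExpr. Of 26535 features 18228 were tested, and adjusted p-values (Benjamini-Hochberg) are over these. Calls are at an adjusted p under 0.05; standard errors derive from F. CPM are counts per library total times its TMM factor. DESeq2 1.42.0, limma 3.58.1 (voom, and log2(FPKM + 1) or log2(FPKM + 0.1)), other scalings, no filter and left-out libraries were alternatives. Script behaviour was tested on simulated counts. The counts of unadjusted p-values and of groups that do not overlap, also without A549 VGF replicate 2, were added after seeing the data. Promoters are from RefSeq; gene positions, exon overlap and coding sequences (the longest open reading frame) from GENCODE 29. Counting error limits genes of few counts.

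The members and lists were chosen with earlier results of these data known. Values per library were planned for HSPA8, VGF, members past a test (the 6 largest line differences per direction above 5 CPM) and the highest FPKM of each class. Of these, the text gives DNAJB14 and HSPA4L by fold changes and HSPA1B by fold changes and its sum with HSPA1A. It gives HSPA12A and HSPA12B by count ranges and HSPA5 by group means. HSP90AB1, HSP90B1, HSPE1, HSPA1L, HSPA6, HSPA4, HSPA9, HSPA14, HSPB6, HSPB11, HSPH1, DNAJA3, DNAJA4, DNAJB7, DNAJB9, DNAJB11, DNAJB13 and the untested members were named after their values were seen. The planned permutation test of class shares was not run, and the planned description of protein ends was not made.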

Additional observations from a re-analysis of the deposited data

Results flagged for a closer look

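VGF was the only flagged result. Its own log2 fold change with the lentivirus differed between the lines, with a difference (H1299 minus A549) of -5.52 in the edgeR fit. All 3 VGF libraries of each line were above all 3 of its empty vector libraries.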

How the results depend on the processing

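No pairing by replicate number was seen in both lines. Correlations of same-numbered libraries' deviations were 0.0130, 0.0117 and 0.105 in H1299 and -0.00861, -0.0765 and -0.0654 in A549. Those of differently numbered libraries ran from -0.0731 to 0.0502 in H1299 and from -0.0563 to 0.122 in A549. The highest value was thus a same-numbered pair in H1299 and a differently numbered pair in A549. The replicate block moved the features called for VGF in H1299 from 2 to 1 and in A549 from 144 to 63, with 0 members in either. In H1299 the 2 calls became 139 with DESeq2, 1 with limma voom, 5 without a filter, 4 on log2(FPKM + 1), 4 with the line fitted alone, and 1 to 4 with a library left out. In A549 the 144 became 729 with DESeq2, 334 with limma voom, and 52 to 130 with a library left out. The 29 for the difference between effects became 310, 19, and 18 to 36. DESeq2 called 3 members in H1299, 1 in A549 and 4 for the difference, and limma voom called 1 in A549; every other alternative called 0 members in these comparisons. Between lines 13610 to 14346 features and 27 to 33 members passed with a library left out. The 1755 gene values tallied here are the fold changes of genes described by their own values, and those of members at an unadjusted p under 0.05, under each alternative; HSPH1, HSPA14, DNAJB11 and HSPA4 between lines are not among them. Of them 1722 kept both direction and side of the threshold, 9 gained a call, 15 lost one and 9 turned. With a library left out, the values that turned ran from -0.0572 to 0.0159 for HSPA8, -0.0784 to 0.00822 for BAG3, -0.0479 to 0.0663 for DNAJB6 and -0.0612 to 0.0166 for HSF1 in A549, and from -0.0568 to 0.0505 for BAG3 in H1299. HSP90B1 between lines turned to 0.0247 on log2(FPKM + 1) and 0.0248 on log2(FPKM + 0.1). The DNAJC9 call was also lost with the replicate block (adjusted p = 0.0913) and with A549 fitted alone (0.0598). The causes were not tested. On log2(FPKM + 1) and log2(FPKM + 0.1) the median of all features between lines moved to 0.12 and 0.194.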
